A study of Mus musculus with 16 samples.

Results

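The genes described here encode proteoglycans that sit on the cell surface: *Cspg4*, the syndecans *Sdc1*, *Sdc2*, *Sdc3* and *Sdc4*, and the glypicans *Gpc1*, *Gpc3*, *Gpc4* and *Gpc6*. They were selected by name, as 9 of the 32989 gene identifiers in the count table, and *Cspg4* was picked because its level fell in N1-acetylspermidine-treated CD34− cells of these same libraries. All 9 had a mean count of at least 5 molecule tags (UMIs) over the libraries and were among the 19049 genes tested. Because of that choice, the changes of these 9 genes under treatment in CD34− cells, and the differences between their effects, are given as a description without a test.

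Hair follicle stem cell (HFSC) organoids were raised from epidermal cells of 4 C57BL/6J mice in the 3D–3C system over 2 weeks. Part of each culture was given the acetylated polyamine N1-acetylspermidine (N1-AcSpd) during 72 h. Cells were sorted by α6 integrin and CD34, a marker of bulge stem cells, and their RNA was sequenced from the 3′ end and counted by UMIs, short random tags that tell molecules apart. The 4 groups were untreated α6+/CD34− progenitors, N1-AcSpd-treated α6+/CD34− progenitors, untreated α6+/CD34+ HFSCs and N1-AcSpd-treated α6+/CD34+ HFSCs, and each mouse gave 1 library to each group. No allele or transgene was involved, donors of both sexes in the resting phase of the hair cycle were used according to the methods, and every culture held Y27632, VEGF and FGF2, a growth factor that binds heparan sulfate. The cells had thus been in culture and were not taken straight from the bulge.

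Proteoglycans are core proteins that carry long sulfated sugar chains, either heparan sulfate or chondroitin sulfate, and the chains hold growth factors, morphogens and matrix proteins near their receptors. Syndecans span the membrane and bind scaffold proteins inside the cell, while glypicans are tied to the outer leaflet by a lipid anchor and can be released. *Cspg4*, also called NG2, is a membrane-spanning core protein with chondroitin sulfate, known from pericytes, glial precursors and melanoma cells, and its human form has been used to mark keratinocyte stem cells.

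The 16 libraries held 15480075 to 29074855 UMIs and 22142 to 24247 genes with a UMI. *Cd34* lay between 2.88 and 3.65 CPM (counts scaled to a common library total) in CD34− cells. In CD34+ cells it lay between 43.4 and 64.1 CPM, with counts near-identical to those of an overlapping model, Gm16897. Markers of basal and follicle keratinocytes summed to 6196 to 7140 CPM over all libraries. Markers of differentiated keratinocytes summed to 1052 to 1612 CPM in CD34− libraries against 302 to 408 CPM in CD34+ libraries, and whether this difference had a part in the cell type differences below was not tested. As in any bulk sample, a lower level cannot be told apart into fewer cells that make the RNA and less RNA per cell.

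The bases just before the start of 3 of these genes are shown, since *Cspg4* and *Gpc3* were higher and *Sdc1* was lower in CD34+ cells. The promoter table (RefSeq, GRCm38.p6) matched 6 of the 9 genes, *Cspg4*, *Sdc1*, *Sdc3*, *Sdc4*, *Gpc3* and *Gpc4*. Capitals mark each match to GGGCGG on either strand, the letters of the GC box, a sequence bound by Sp1-type factors. The lines run 5′ to 3′ on the gene's own strand, from chr9:56864854-56865032 (plus strand) for *Cspg4*, chrX:52613975-52614224 (minus strand) for *Gpc3* and chr12:8771146-8771322 (plus strand) for *Sdc1*, and end before the annotated gene.
Cspg4: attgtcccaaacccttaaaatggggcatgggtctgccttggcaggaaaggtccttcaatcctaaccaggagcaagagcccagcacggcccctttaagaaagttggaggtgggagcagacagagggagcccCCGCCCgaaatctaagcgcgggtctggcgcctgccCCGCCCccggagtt
Gpc3: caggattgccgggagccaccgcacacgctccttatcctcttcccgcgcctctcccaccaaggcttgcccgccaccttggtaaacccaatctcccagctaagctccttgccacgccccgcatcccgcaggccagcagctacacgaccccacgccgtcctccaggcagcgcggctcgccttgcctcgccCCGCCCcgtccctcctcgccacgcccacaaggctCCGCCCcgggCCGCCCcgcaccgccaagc
Sdc1: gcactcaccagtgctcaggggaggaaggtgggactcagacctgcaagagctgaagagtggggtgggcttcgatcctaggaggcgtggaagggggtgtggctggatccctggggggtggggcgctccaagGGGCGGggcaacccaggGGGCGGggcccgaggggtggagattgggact

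The GC box letters occurred 2 times in the 179 bases before *Cspg4*, 3 times in the 250 bases before *Gpc3* and 2 times in the 177 bases before *Sdc1*. The stretch of *Gpc3* ends 25 bases from its annotated start. Of the 32851 RefSeq promoters, 20.9%, 32.7% and 20.6% held at least 1 match in their first 179, 250 and 177 bases. These windows were counted from the far end of each promoter. The windows of 179 and 177 bases thus leave out the part nearest the RefSeq start. Neither TATAAA nor TGANTCA, the letters of the TATA box and of an AP-1 site, was found on either strand of the 3 stretches. TATAAA was present in 8.34%, 12.4% and 8.26% of all promoters in the same windows, and TGANTCA in 4.89%, 6.75% and 4.84%. The GC box thus stood before genes that differed between the cell types in opposite directions, and a match describes letters only.

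*Cspg4* (ENSMUSG00000032911, chromosome 9, 56865033 to 56899870, plus strand, GRCm38) set the 2 cell types apart more than any other of the 9 genes did. In untreated CD34− cells of mice 1 to 4 it stood at 2.58, 2.36, 2.69 and 2.93 CPM, from 37 to 65 UMIs a library. In untreated CD34+ cells it stood at 19.3, 14.8, 13.2 and 16.6 CPM, from 244 to 339 UMIs. The groups were far apart, and every mouse was higher in its CD34+ library. The mean rose from 2.64 ± 0.236 to 16.0 ± 2.60 CPM (SD, n = 4 each), which is 6.03-fold (log2 fold change 2.59, SE 0.118, edgeR quasi-likelihood test, Benjamini-Hochberg adjusted p = 1.97e-08). This comparison shares its untreated CD34− libraries with the one for which *Cspg4* was picked, so its p is not independent of that choice.

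Under N1-AcSpd, *Cspg4* stood at 1.44, 1.21, 1.10 and 1.44 CPM in CD34− cells, from 29 to 35 UMIs a library. All 4 treated libraries lay below all 4 untreated ones, and the mean was 1.30 ± 0.170 CPM, a log2 fold change of −1.03 (SE 0.12). This is the change that placed the gene here, and it has no test. In CD34+ cells of the treated cultures the values were 13.9, 13.3, 12.5 and 13.8 CPM, and the mean was 13.4 ± 0.630 CPM. Each mouse was lower with N1-AcSpd in this cell type too, by 0.080 to 0.47 on the log2 scale, but the libraries of both conditions overlapped. The log2 fold change of −0.26 (SE 0.11) in CD34+ cells did not pass the test (edgeR, adjusted p = 0.336). The cell type difference in treated cells was 10.3-fold (log2 3.36, SE 0.123), given without a test because it rests on the treated CD34− libraries, and the difference between the treatment effects of the cell types was 0.77 on the log2 scale (SE 0.16). From the lowest to the highest mean, the order was treated CD34−, untreated CD34−, treated CD34+ and untreated CD34+, and the last pair overlapped.

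Genes that mark pericytes and other mural cells, the cell type in which *Cspg4* is best known, were measured beside it. Of 7 such genes in the table, *Acta2*, smooth muscle actin, led the summed level, which ran from 12.7 to 20.2 CPM in untreated and 10.9 to 13.0 CPM in treated CD34− libraries, and from 21.2 to 36.7 CPM in untreated and 13.7 to 21.3 CPM in treated CD34+ libraries. *Acta2* moved with *Cspg4* across cell types, from 12.1 ± 3.56 to 23.2 ± 6.38 CPM in untreated cells (log2 0.95, SE 0.256, edgeR adjusted p = 0.0115). *Acta2* was singled out after its values were seen, so the p-values given for it are not independent of that choice. With N1-AcSpd its mean was 6.22 ± 0.880 CPM in CD34− and 12.0 ± 3.66 CPM in CD34+ cells, and neither treatment difference passed the test (log2 −0.95 in both, adjusted p = 0.115 and 0.147). Without *Acta2* the other 6 mural genes summed to 4.33 to 7.34 CPM over all 16 libraries, led by *Mcam*. *Mcam* overlaps the opposite-strand model Gm10687, which held more UMIs (2523 against 1440). *Notch3* overlaps the opposite-strand model Gm17276 with near-identical counts (378 against 395 UMIs). UMIs over the 4 libraries follow in the order untreated CD34−, treated CD34−, untreated CD34+ and treated CD34+ cells. *Mcam* had 295, 437, 365 and 343 and *Notch3* 114, 188, 40 and 53. *Abcc9* had 2, 1, 8 and 0, *Pdgfrb* 6, 5, 0 and 0, *Myh11* 0, 4, 2 and 1, and *Des* 0, 0, 0 and 1. The mural genes thus went both ways between the cell types. In untreated cells the mean CPM was lower in CD34+ cells for *Notch3* (1.32 to 0.546) and *Pdgfrb* (0.070 to 0). It was higher there for *Mcam* (3.55 to 4.94), *Abcc9* (0.027 to 0.105) and *Myh11* (0 to 0.026). *Rgs5*, *Kcnj8* and *Higd1b* had no entry in the counts. The part of mural cells in the differences was not tested.

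**Figure D1:**
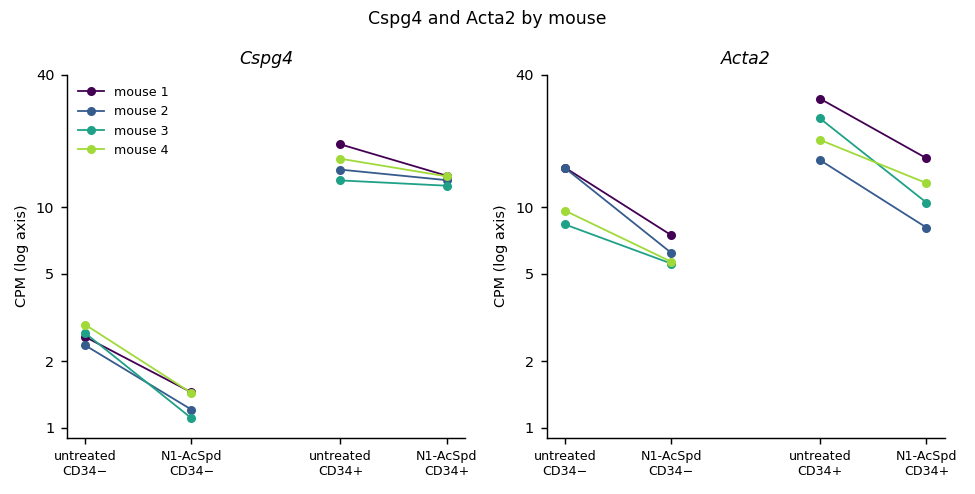
*Cspg4* (left) and *Acta2* (right) in CPM on a log axis, 1 line per mouse joining its untreated and its N1-AcSpd library within each cell type. *Cspg4* was picked for its fall in CD34− cells, and *Acta2* was added after its values were seen. All 8 lines slope down for both genes, those of *Cspg4* from 2.36 to 2.93 down to 1.10 to 1.44 CPM in CD34− cells and from 13.2 to 19.3 down to 12.5 to 13.9 CPM in CD34+ cells.

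Cells of the melanocyte lineage can carry *Cspg4* as well. *Mitf* and *Pmel* led that list, which summed to 28.0 to 36.1 CPM over all libraries. *Mitf* overlaps the opposite-strand model Gm15531 with similar counts, and *Pmel* overlaps *Dgka* and *Cdk2* on the opposite strand. Fibroblast and dermal papilla markers summed to 0.285 to 2.21 CPM, glial markers to 6.24 to 12.3 CPM and immune markers to 2.58 to 6.27 CPM. The endothelial sum of 1687 to 2055 CPM was almost all *Pecam1*, itself a marker on that list, and the source of this level was not looked into. *Kdr*, *Tek* and *Vwf* were at most 0.360 CPM in any library, and *Cdh5*, *Emcn* and *Cldn5* had no entry in the counts. The part of these lists in the differences was not tested.

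Among the 9 genes, *Cspg4* was not alone in standing higher in CD34+ cells. In untreated cells 5 were higher and 1 was lower by the test, 6 in all, against 32.1% of all tested genes called in that comparison (16.1% higher and 16.1% lower). With *Cspg4* left out because of how it was picked, 4 of the other 8 were higher and 1 was lower there. In treated cells, where *Cspg4* has no test, 5 of the other 8 were higher and 1 was lower, against 33.3% of all tested genes (16.5% higher and 16.8% lower). The median log2 fold change of those 8 was 0.39 in untreated and 0.40 in treated cells, beside 0.022 and −0.0068 over all tested genes. In untreated cells the 4 CD34+ libraries did not overlap the 4 CD34− libraries for any of the 8 genes besides *Cspg4*. This was true of 32.2% of all tested genes. In treated cells it held for 5 of the 8, against 34.4%. The 8 include *Sdc3* and *Gpc1*, whose counts cannot be told apart from those of overlapping models, and being few they are given as a description. With library totals in place of TMM scaling the median of all genes rose to 0.14 in untreated cells and 4862 of 6621 calls were higher in CD34+ cells, against 3059 of 6123, so shifts of that size depend on the scaling.

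**Figure D2:**
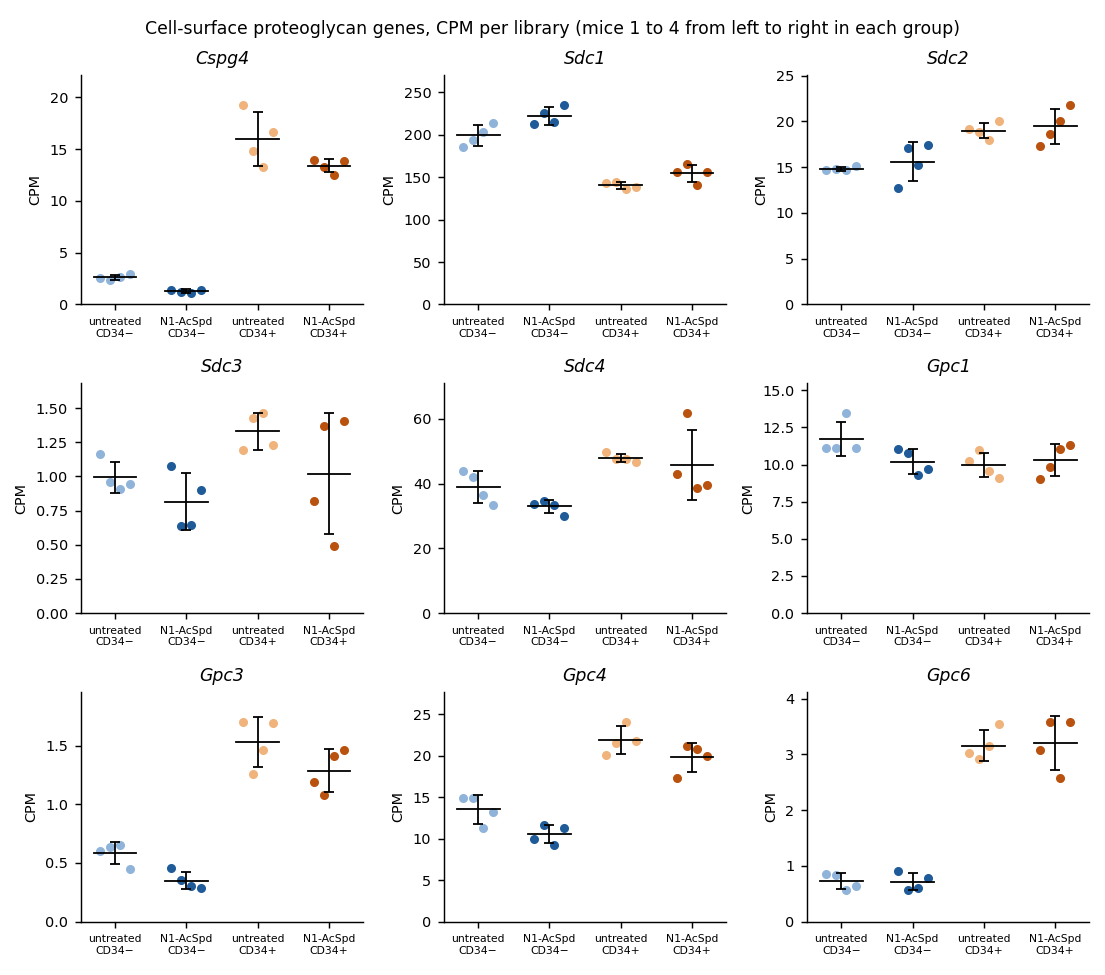
Levels in CPM of the 9 genes in the 4 groups, each axis starting at 0, with points for the libraries of mice 1 to 4 from left to right, a line at the mean and bars for the SD (n = 4). *Cspg4*, *Gpc3*, *Gpc4* and *Gpc6* stood clearly higher in both CD34+ groups, and *Sdc1* stood lower. For *Gpc1*, *Sdc3* and *Sdc4* all groups next to each other in level overlapped.

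The glypicans *Gpc6*, *Gpc3* and *Gpc4* followed *Cspg4* in the size of their rise. *Gpc6* (ENSMUSG00000058571, chromosome 14, 116925315 to 117976544, plus strand), which binds hedgehog proteins and is needed for long bone growth, was a rare RNA. Untreated CD34− libraries held 0.860, 0.831, 0.563 and 0.632 CPM, and untreated CD34+ libraries held 3.02, 2.91, 3.14 and 3.55 CPM. The lowest CD34+ library was thus more than 3 times the highest CD34− one. The fold was 4.36 (log2 2.12, SE 0.181, edgeR adjusted p = 1.57e-06) from 13 to 20 UMIs a library in CD34− and 53 to 69 UMIs in CD34+ cells. In treated cells the means were 0.716 ± 0.157 and 3.21 ± 0.482 CPM, and the fold was 4.46 (log2 2.16, SE 0.179, adjusted p = 1.14e-06). Under N1-AcSpd the log2 fold change of *Gpc6* was −0.0091 (SE 0.236) in CD34− and 0.024 (SE 0.179) in CD34+ cells, and the latter did not pass the test (adjusted p = 0.994).

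*Gpc3* (ENSMUSG00000055653, chromosome X, 52272426 to 52613950, minus strand), a glypican that binds hedgehog and Wnt proteins and whose loss causes overgrowth, was measured from few UMIs. It stood at 0.602, 0.639, 0.650 and 0.451 CPM in untreated CD34− libraries and at 1.71, 1.26, 1.46 and 1.70 CPM in untreated CD34+ libraries. The groups did not overlap although a CD34− library held only 10 to 15 UMIs. *Gpc3* was 2.60-fold higher in untreated CD34+ cells (log2 1.38, SE 0.192, edgeR adjusted p = 1.01e-04). In treated cells it was 3.63-fold higher (log2 1.86, SE 0.197, adjusted p = 7.47e-06), from 0.350 ± 0.0750 to 1.29 ± 0.183 CPM. Each mouse had less *Gpc3* with N1-AcSpd in both cell types. In CD34− cells the log2 fold change was −0.73 with an SE of 0.31, from 7 to 11 UMIs a treated library, and mouse 1 of the treated group at 0.454 CPM overlapped mouse 4 of the untreated group. In CD34+ cells it was −0.25 (SE 0.186), which did not pass the test (adjusted p = 0.640).

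*Gpc4* (ENSMUSG00000031119, chromosome X, 52053021 to 52165252, minus strand), a co-receptor for FGF, Wnt and BMP ligands, lies on the same chromosome as *Gpc3* and was measured with more UMIs, 233 to 467 a library. Untreated CD34− libraries held 14.9, 14.9, 11.3 and 13.2 CPM and untreated CD34+ libraries held 20.1, 21.6, 24.1 and 21.7 CPM. All CD34+ values lay above all CD34− values. The means were 13.6 ± 1.74 and 21.9 ± 1.65 CPM, a 1.61-fold difference (log2 0.69, SE 0.101, edgeR adjusted p = 1.52e-04). In treated cells the means were 10.5 ± 1.10 and 19.8 ± 1.74 CPM, a 1.88-fold difference (log2 0.91, SE 0.101, adjusted p = 1.16e-05). Each mouse had a lower *Gpc4* value with N1-AcSpd in both cell types, by log2 fold changes of −0.36 (SE 0.10) in CD34− cells and −0.14 (SE 0.100, adjusted p = 0.613) in CD34+ cells, and the libraries overlapped in both.

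*Gpc1* (ENSMUSG00000034220, chromosome 1, 92831645 to 92860779, plus strand), a glypican that aids FGF signalling in epithelial and tumor cells, had no clear pattern and uncertain counts. Its means ran from 9.98 ± 0.813 CPM in untreated CD34+ to 11.7 ± 1.17 CPM in untreated CD34− cells, with 10.2 ± 0.814 and 10.3 ± 1.07 CPM in treated CD34− and CD34+ cells. Every pair of neighbours in that order overlapped. The cell type difference did not pass the test in untreated cells, where the libraries lay just apart (log2 −0.23, SE 0.091, edgeR adjusted p = 0.0676), or in treated cells (log2 0.014, SE 0.091, adjusted p = 0.944). Without 1 library the first of these passed, at adjusted p = 0.0469 without treated CD34+ mouse 1 and 0.0445 without untreated CD34+ mouse 2.

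The opposite-strand gene *Ankmy1* overlaps *Gpc1*, and its UMIs came to 82.8% of those of *Gpc1* over all libraries, while those of the antisense model Gm29480 came to 14.0%. In each library the *Gpc1* count exceeded the sum of both by only 4 to 14 UMIs. Without knowledge of strand in the counting, *Gpc1* and its partners cannot be told apart, and Gm29480 itself was lower in untreated CD34+ cells (log2 −0.72, SE 0.196, adjusted p = 0.0121) while *Ankmy1* was not called (log2 −0.13, SE 0.0952, adjusted p = 0.344).

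*Sdc1* (ENSMUSG00000020592, chromosome 12, 8771323 to 8793715, plus strand), the chief syndecan of stratified epithelia, was the single gene of the 9 called lower in CD34+ cells. Untreated CD34− libraries held 185, 194, 203 and 214 CPM, and untreated CD34+ libraries held 143, 145, 136 and 138 CPM. No CD34+ library reached the lowest CD34− one. The means were 199 ± 12.4 and 140 ± 3.87 CPM, 1.42-fold lower in CD34+ cells (log2 −0.51, SE 0.0536, edgeR adjusted p = 9.06e-06). In treated cells they were 222 ± 10.7 and 155 ± 9.99 CPM, 1.44-fold lower (log2 −0.52, SE 0.0536, adjusted p = 5.61e-06). With 2299 to 6371 UMIs a library, *Sdc1* had a counting error of 1.32% to 1.97%, below its spread between mice of 2.76% to 6.46%.

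*Sdc1* was also the gene that stood higher with N1-AcSpd in every mouse of both cell types, with overlapping libraries. The log2 fold change was 0.16 (SE 0.0535) in CD34− cells. In CD34+ cells it was 0.14 (SE 0.0535) and did not pass the test over all genes (edgeR adjusted p = 0.291).

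*Sdc2* (ENSMUSG00000022261, chromosome 15, 32920723 to 33034935, plus strand), a syndecan best known from fibroblasts and other mesenchymal cells, was modestly higher in CD34+ cells. Untreated CD34− libraries held 14.7, 14.8, 14.6 and 15.2 CPM, and untreated CD34+ libraries held 19.1, 18.9, 17.9 and 20.0 CPM. Both groups were tight and apart. The difference was 1.28-fold in untreated cells (log2 0.36, SE 0.0894, edgeR adjusted p = 0.00727). In treated cells it was 1.25-fold (log2 0.32, SE 0.0892, adjusted p = 0.0134), with means of 15.6 ± 2.15 and 19.5 ± 1.95 CPM and a treated CD34− library of mouse 4 at 17.4 CPM just above a treated CD34+ library of mouse 1 at 17.3 CPM. The call in treated cells was lost without mouse 3 (log2 0.29, adjusted p = 0.107) and with only the compared groups in the fit (log2 0.33, adjusted p = 0.0622). Treatment moved *Sdc2* by a log2 of 0.073 in CD34− and 0.034 in CD34+ cells (SE 0.0892 in both, adjusted p = 0.950 in CD34+ cells).

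*Sdc4* (ENSMUSG00000017009, chromosome 2, 164424247 to 164443887, minus strand), the syndecan of focal adhesions, ran from 33.4 to 43.9 CPM in untreated CD34− and from 46.7 to 49.6 CPM in untreated CD34+ libraries. The means were 38.9 ± 4.84 and 47.9 ± 1.23 CPM, and the difference of 0.30 on the log2 scale did not pass the test (SE 0.129, edgeR adjusted p = 0.0952). In treated cells it passed (log2 0.47, SE 0.129, adjusted p = 0.0111), with 32.9 ± 1.95 CPM in CD34− and 45.7 ± 10.8 CPM in CD34+ cells.

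The wide spread of the last group came from mouse 2, at 61.8 CPM against 42.9, 38.6 and 39.7 CPM in the others. Without that library the untreated difference was called (log2 0.30, adjusted p = 0.00968), and it was also called with mouse as a block (log2 0.31, adjusted p = 0.0401). Each mouse had a lower *Sdc4* value with N1-AcSpd in CD34− cells (log2 −0.24, SE 0.128), and in CD34+ cells 3 of 4 did (log2 −0.066, SE 0.128, adjusted p = 0.928).

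*Sdc3* (ENSMUSG00000025743, chromosome 4, 130792537 to 130826319, plus strand), the syndecan of nerve cells, was rare, with 8 to 27 UMIs a library. Its means were 0.994 ± 0.113, 0.815 ± 0.211, 1.33 ± 0.135 and 1.02 ± 0.444 CPM in untreated CD34−, treated CD34−, untreated CD34+ and treated CD34+ cells. Neither cell type difference passed the test (log2 0.42, SE 0.282, edgeR adjusted p = 0.302 in untreated cells, and log2 0.32, SE 0.283, adjusted p = 0.445 in treated cells), although the untreated groups did not overlap. Nor did the treatment difference in CD34+ cells (log2 −0.38, SE 0.282, adjusted p = 0.641). Gm26716, an antisense model within *Sdc3*, held the same count in 8 of 16 libraries and at most 3 UMIs fewer in the rest, so that the RNA counted as *Sdc3* cannot be told apart from it.

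**Figure D3:**
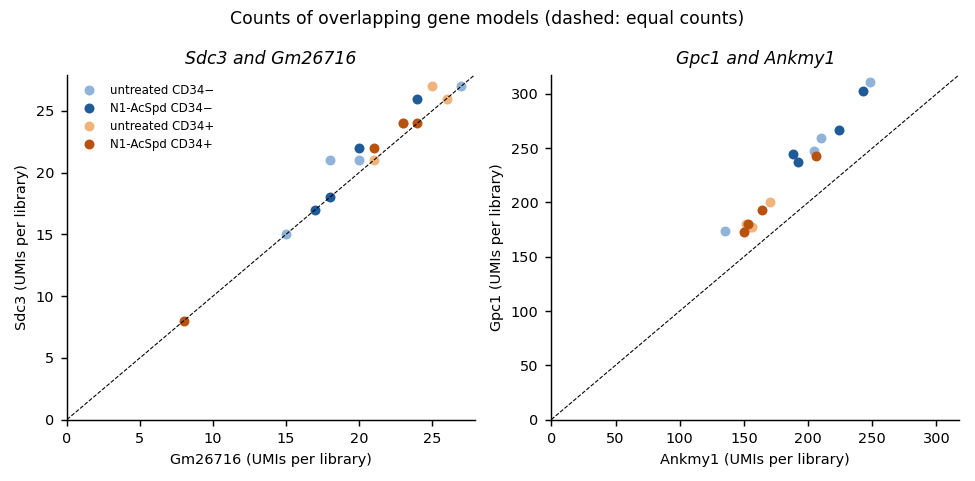
UMIs per library of *Sdc3* against Gm26716 (left) and of *Gpc1* against *Ankmy1* (right), 1 point per library, with a dashed line at equal counts. *Sdc3* points lie on the line or up to 3 UMIs above it, and *Gpc1* points run parallel to it, 21 to 63 UMIs above.

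Under treatment in CD34− cells, *Cspg4*, *Gpc1*, *Gpc3*, *Gpc4*, *Sdc3* and *Sdc4* were lower in each of the 4 mice and *Sdc1* was higher. How many of all tested genes moved the same way in all 4 mice was not counted, so this is no result about the family. *Cspg4* was picked for this fall, and the counts of *Gpc1* and *Sdc3* cannot be told apart from those of overlapping models. In CD34− cells 1 of the 9, *Cspg4*, was among the called genes, 0.614% of all tested, a figure given beside the choice of this gene and not as a result. The libraries of *Cspg4*, picked for its fall here, and of *Gpc1* did not overlap between conditions, as for 9.05% of all tested genes, and both were lower. The median log2 fold change of the 9, *Cspg4* included, was −0.24 in CD34− cells, beside 0.0001 over all tested genes. The non-overlap count and this median include the picked gene and are not results. In CD34+ cells edgeR called 0 of the 9, against 0.325% of all tested genes, with 2 at an unadjusted p under 0.05, *Sdc1* and *Cspg4*, as for 13.2% of all tested genes. DESeq2 also called 0 of the 9 there, with 423 calls over all genes. None of the 9 had groups apart in CD34+ cells, against 6.81% of tested genes, and their median log2 fold change was −0.066 beside −0.014. The interaction, the difference between the treatment effects of the cell types, gave 0 calls over all genes (0%), with 799 at an unadjusted p under 0.05 in edgeR and 72 calls in DESeq2, and the values of the 9 genes in it are a description. With mouse as a block, calls over all genes rose from 117 to 351 in CD34− and from 62 to 152 in CD34+ cells, and the 9 genes kept counts of 1 and 0.

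**Figure D4:**
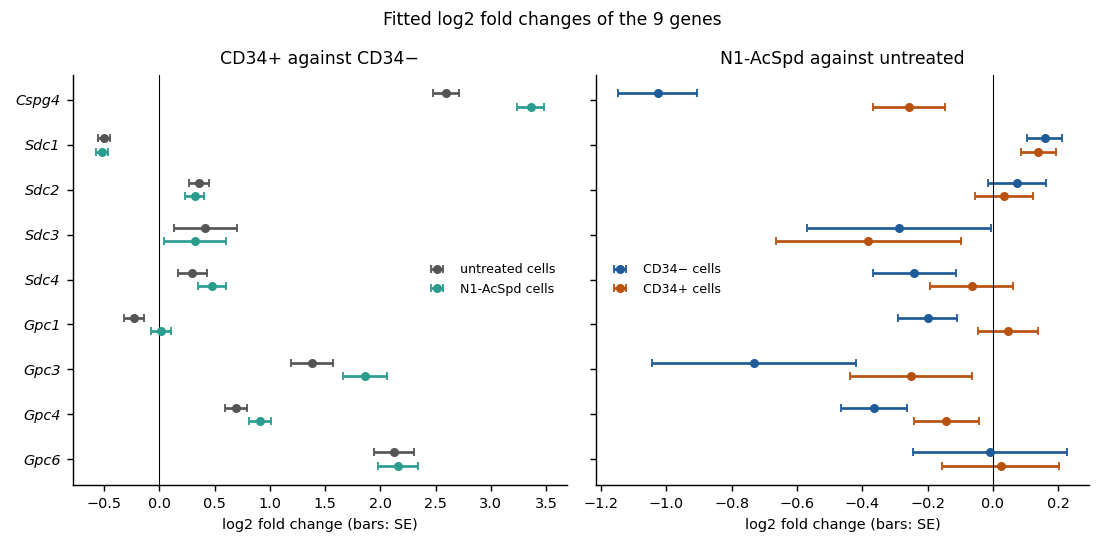
Fitted log2 fold changes of the 9 genes with SE bars, CD34+ against CD34− on the left (untreated and N1-AcSpd cells) and N1-AcSpd against untreated on the right (CD34− and CD34+ cells). On the left *Cspg4* reaches 2.59 and 3.36, *Gpc6* 2.12 and 2.16, and *Sdc1* lies at −0.51 and −0.52, while on the right *Cspg4* in CD34− cells lies farthest out, at −1.03, followed by *Gpc3* at −0.73.

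Genes whose levels ran most like *Cspg4* over the 16 libraries were *Lgi4*, *Fxyd3*, *Reep5*, *C1qtnf12* and *Krt15*, with Pearson r of 0.992, 0.992, 0.991, 0.990 and 0.985 on log2(CPM + 0.5) among 9667 genes. The 16 points share 4 groups and 4 mice, so these values mostly restate the group means. *Lgi4* and *Fxyd3* overlap on opposite strands and had near-identical patterns. *Krt15*, a keratin of the bulge, went from 38.6 ± 3.37 to 393 ± 56.1 CPM in untreated and from 30.3 ± 2.45 to 300.4 ± 64.0 CPM in treated cells between CD34− and CD34+. Among the 9 genes with enough counts, r with *Cspg4* was 0.937 for *Gpc4*, 0.778 for *Sdc2*, 0.758 for *Sdc4*, −0.265 for *Gpc1* and −0.951 for *Sdc1*.

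The genes that build, edit and use the chains were taken from 7 lists with 125 genes, 95 of them tested. Of these, 28 were higher and 15 lower in CD34+ cells without treatment, 45.3% of those tested against 32.1% of all tested genes, and 33 were higher and 12 lower with N1-AcSpd, 47.4% against 33.3%. The same shares of all genes apply to each list below. The median log2 fold change over the lists was 0.20 in both, beside 0.022 and −0.0068 for all genes. The lists were chosen with results of these data known, and the counts are a description. Called genes that build the chains were higher with 2 exceptions, *Hs3st1* and *Chst7*, and the ligands went both ways.

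Among other core proteins, 3 of 13 tested were higher and 3 lower in CD34+ cells in either condition, 46.2% called. *Bcam*, a laminin receptor at times listed with proteoglycans, went from 3.75 ± 0.430 to 8.28 ± 1.68 CPM (log2 fold change 1.14, SE 0.135, edgeR adjusted p = 2.32e-05), and *Agrn*, a heparan sulfate proteoglycan of basement membranes, rose by a log2 of 0.59 (SE 0.0965, adjusted p = 3.68e-04). *Cd44*, a hyaluronan receptor that carries chains in some splice forms, fell from 71.7 ± 4.44 to 49.5 ± 4.17 CPM (log2 fold change −0.54, SE 0.116, adjusted p = 0.00284). *Tgfbr3*, betaglycan, fell by 0.35 on the log2 scale (SE 0.118, adjusted p = 0.0352), with part of its count shared with the model Gm43423, and was called in only 11 of 20 runs without 1 library or mouse. All 4 kept their direction and call in treated cells, at log2 fold changes of 1.13, 0.78, −0.62 and −0.44.

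Enzymes that start the chains on the core protein were called higher for 2 of 8 in untreated and 4 of 8 in treated cells, 25% and 50%, with none lower. *B3galt6*, which adds a galactose of the linkage region, was higher in treated CD34+ cells (log2 0.48, SE 0.108, edgeR adjusted p = 0.00323). For heparan sulfate chains, 5 of 16 were higher and 1 lower in untreated cells, and 5 higher and 0 lower in treated cells, 37.5% and 31.2% called, near the shares of all genes. *Ugdh*, which makes the glucuronic acid donor for both kinds of chain, rose from 11.7 ± 0.841 to 22.1 ± 2.03 CPM (log2 fold change 0.92, SE 0.0680, adjusted p = 7.16e-07) and in treated cells from 13.2 ± 0.614 to 27.0 ± 1.20 CPM (log2 fold change 1.03, adjusted p = 2.56e-07). An overlapping model on its strand, Gm43552, had other counts (r = 0.434). *Extl3*, which starts the heparan sulfate chain, rose by 0.43 (SE 0.0820, adjusted p = 0.00110), and *Papss1*, which makes the sulfate donor, by 0.56 in treated cells (SE 0.0755, adjusted p = 6.38e-05).

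Of 14 tested enzymes for chondroitin and dermatan sulfate, the chain kind that *Cspg4* carries, 5 were higher and 0 lower in untreated cells, and 5 higher and 1 lower in treated cells, 35.7% and 42.9% called. *Csgalnact2*, which starts the chondroitin chain, rose from 1.79 ± 0.517 to 4.44 ± 0.596 CPM (log2 fold change 1.30, SE 0.189, edgeR adjusted p = 1.48e-04), and by 0.93 in treated cells (adjusted p = 0.00146). *Chst14*, a dermatan sulfate sulfotransferase, rose by 0.67 (SE 0.188, adjusted p = 0.0141) and 0.74 (SE 0.187, adjusted p = 0.00734).

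Genes that edit chains or release core proteins were higher for 7 of 13 in untreated and 6 of 13 in treated cells, 53.8% and 46.2%, with 0 lower. *Mmp14*, a membrane protease, rose from 18.9 ± 0.915 to 28.9 ± 3.10 CPM (log2 fold change 0.62, SE 0.0914, edgeR adjusted p = 1.75e-04). *Timp3*, an inhibitor of such proteases that binds sulfated chains, rose by 1.40 (SE 0.130, adjusted p = 2.79e-06), but its counts were near-identical to those of *Syn3* on the opposite strand. In CD34+ cells the count listed for *Timp3* fell with N1-AcSpd from 38.1 ± 3.02 to 22.7 ± 1.35 CPM (log2 fold change −0.75, SE 0.128, adjusted p = 0.0274), the single call among the 95 genes in that comparison. It was called in 10 of 20 runs without 1 library or mouse.

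The cytoplasmic partners of syndecans and *Cspg4* were lower for 5 of 13 in either condition, with 2 higher in untreated and 3 higher in treated cells, 53.8% and 61.5% called. *Sdcbp*, syntenin, which binds the tails of syndecans, was slightly higher in CD34+ cells (log2 0.23, SE 0.0564, edgeR adjusted p = 0.00654). *Dlg1*, a scaffold protein, fell from 34.2 ± 2.43 to 18.3 ± 0.793 CPM (log2 fold change −0.90, SE 0.0742, adjusted p = 1.27e-06), and *Ezr*, ezrin, which links the membrane to actin, by 0.32 (SE 0.0572, adjusted p = 7.64e-04). *Prkca*, a kinase that works with *Sdc4* and phosphorylates *Cspg4*, was higher in treated CD34+ cells (log2 0.50, SE 0.166, adjusted p = 0.0311), but the call was lost with mouse as a block (adjusted p = 0.0529), in 3 other settings and in 8 of 20 runs without 1 library or mouse.

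Ligands that bind heparan sulfate, with their receptors, went both ways, 4 of 18 higher and 6 lower in untreated, and 7 higher and 3 lower in treated cells, 55.6% called in either. *Ptn*, pleiotrophin, which binds both heparan and chondroitin sulfate, rose from 1.22 ± 0.459 to 8.03 ± 2.01 CPM (log2 fold change 2.70, SE 0.292, edgeR adjusted p = 1.06e-05), and *Thbs1*, thrombospondin, from 5.63 ± 0.161 to 29.4 ± 6.31 CPM (log2 fold change 2.38, SE 0.228, adjusted p = 3.59e-06). The EGF family ligands *Areg* and *Hbegf* fell, by 1.23 (SE 0.170, adjusted p = 9.31e-05) and 1.08 (SE 0.181, adjusted p = 4.35e-04) on the log2 scale. *Pdgfa*, whose product is known to bind the *Cspg4* protein, fell with N1-AcSpd in CD34− cells from 30.5 ± 0.939 to 24.6 ± 1.05 CPM (log2 fold change −0.31, SE 0.0641, adjusted p = 0.0480), the single call among the 95 genes there. The call was unstable, kept in 3 of 20 runs without 1 library or mouse and in 4 of 7 other settings.

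**Figure D5:**
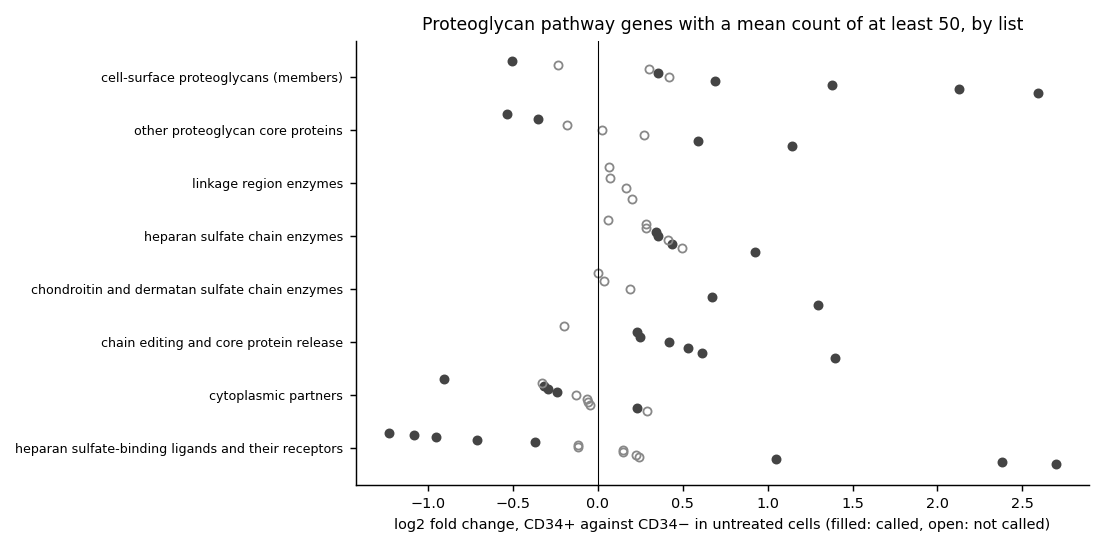
Log2 fold change of CD34+ against CD34− in untreated cells, 1 point per gene, for the 9 cell-surface proteoglycans and for the 57 genes of the 7 lists with a mean count of at least 50, filled where called. The 4 largest positive values belong to *Ptn*, *Cspg4*, *Thbs1* and *Gpc6*, at 2.70, 2.59, 2.38 and 2.12, and the largest negative ones to *Areg* and *Hbegf*.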

How the data were processed

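RNA of 16 libraries, 4 groups of 4, was measured. Groups were read from the labels, and by their mouse entry equal replicate numbers are the same animal in all 4 groups. The authors used FLEXBAR to split reads by barcode, pseudo-aligned second reads to mm10 with Kallisto (0.45.0 in the submitters' processing notes), assigned tags with BEDTools and counted unique UMIs per gene in R. The deposited values are these counts, not normalized. The annotation release and the strand setting of the counting are not given in the sources used here. The 156050 empty cells were read as 0. Symbols and positions came from GENCODE M21 on GRCm38, in which 62 of 32989 identifiers had no symbol, 0.116% of all counts.

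Genes whose mean count reached 5 entered edgeR 4.0.16 (R 4.3.3), with TMM scaling and quasi-likelihood tests in 1 fit of all libraries, and called at a Benjamini-Hochberg adjusted p under 0.05. The study used DESeq2, run here (1.42.0) as an alternative. The SE is the size of the log2 fold change over the square root of F, or that of the tool's Poisson bound where larger. CPM used TMM-scaled totals and p-values are two-sided. Deviations from the group means of libraries of 1 mouse correlated across genes at a mean r of 0.024 (−0.088 to 0.12, 24 pairs), and mouse was a block in an alternative. Further settings were DESeq2 size factors, library totals, filterByExpr or no filter, only the compared groups, and leaving out each library or mouse. Libraries of 1 group were not copies (chi-square per degree of freedom at least 25.4). Besides the 9 genes, the text names from each of the 7 lists up to 2 called genes per direction and comparison with the largest change, given a mean count of 50 or more, and the 5 genes most like *Cspg4*. *Acta2* and partners of overlapping models were added after their values were seen. The members and lists were chosen with earlier results of these data known. The fit was also run on simulated counts with few changed genes and no effect of the mouse. In these data many genes differ between the cell types, so that run does not test the scaling or the pairing here. Depth limits *Sdc3*, *Gpc3* and *Gpc6*, which had the fewest UMIs. Promoter bases were read from RefSeq on GRCm38.p6.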

Additional observations from a re-analysis of the deposited data

Results flagged for a closer look

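In untreated CD34− cells, *Gpc1* stood at 13.5 CPM in mouse 3, against 11.1 CPM in each of the other 3 mice, a gap that took up 0.988 of the whole range of the group. Of 36 sets of 4 libraries examined, 9 genes in 4 groups, this was the only 1 whose gap passed the cutoff for a closer look. About 1 in 20 such sets would pass that cutoff by chance. How often a gap as large as 0.988 would arise by chance was not worked out. *Ankmy1*, whose counts overlap, was also highest in that library, at 10.7 CPM.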

How the results depend on the processing

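Over 7 alternative settings and 20 runs without a library or a mouse, 702 of 729 fold changes of the 9 genes in the tested comparisons kept their direction and their side of the threshold. Counted in are the 27 of *Cspg4* in treated cells, which has no test there. The 5 higher and 1 lower calls in untreated cells (6 in all) became 6 to 7, both over leave-out runs and over the other settings. The 7 in treated cells, with *Cspg4* counted although it has no test there, became 6 to 7 over both as well. Calls over all genes in untreated cells, 6123 in the main fit, ran from 5294 to 6621 over the other settings. Over leave-out runs they ran from 4506 to 6211. In treated cells, with 6347 in the main fit, the ranges were 5564 to 6697 and 4927 to 6369. *Sdc4* in untreated cells passed with library totals (0.41, adjusted p = 0.0253), with mouse as a block (0.31, 0.0401), with only the compared groups (0.30, 0.0358), without mouse 2 (0.34, 0.0262) and without the treated CD34+ library of mouse 2 (0.30, 0.00968). *Gpc1* turned sign in treated cells with DESeq2 (−0.00020) and in leave-out runs (−0.067 to 0.11), near 0 throughout. In CD34+ cells under treatment, leave-out runs turned the sign of *Sdc2* (−0.026 to 0.10), *Sdc4* (−0.25 to 0.0085), *Gpc1* (−0.043 to 0.12) and *Gpc6* (−0.071 to 0.12), none of them called. The count of called genes among the 9 for treatment in CD34− cells was 1, but 3 with DESeq2, 0 with only the compared groups and 0 to 1 over leave-out runs, with 0 without mouse 2 and without mouse 4. The count among the list genes there was 1, but 0 with DESeq2 size factors, 0 without a count filter, 5 with mouse as a block, 4 with DESeq2, 0 with only the compared groups and 0 to 2 over leave-out runs. In CD34+ cells it was 1, but 2 with mouse as a block, 4 with DESeq2 and 0 to 1 over leave-out runs. Calls over all genes for treatment shifted with the setting too. In CD34− cells they were 117 (0.614%) in the main fit, 558 (2.93%) with DESeq2 and 351 with mouse as a block. They were 35 without a count filter, 0 with only the compared groups and 4 to 158 over leave-out runs. In CD34+ cells they were 62 (0.325%), 423 (2.22%) with DESeq2, 152 with mouse as a block and 3 to 73 over leave-out runs. Among the calls of the 9 genes the mouse block changed only that of *Sdc4*, and among those of the named list genes only that of *Prkca* in treated cells, which was also lost without a count filter, with DESeq2 and with only the compared groups (adjusted p = 0.0512 to 0.0737). *Tgfbr3* lost its call in both conditions with library totals (adjusted p = 0.166 and 0.0551) and in untreated cells with only the compared groups (0.0893). Leaving out single mice ended the calls of *Prkca* (mouse 2, 3 or 4), *Tgfbr3* (any mouse in untreated, 1 or 2 in treated cells), *Pdgfa* (any mouse), *Timp3* under treatment (mouse 1, 2 or 4), *Chst14* (mice 1 and 3 in untreated, 2 and 3 in treated cells), *Sdcbp* in untreated and *B3galt6* in treated cells (mouse 3 in both). The cause of these changes was not tested.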
